A study of Danio rerio and Xiphophorus maculatus with 12 samples.

Results

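The genes described here build and fill the lysosome: the cathepsins, the lysosome-associated membrane proteins (LAMPs) and the subunits of the vacuolar proton pump (V-ATPase). The rule took every gene whose symbol in lower case starts with cts, with lamp and a digit, or with atp6v0 or atp6v1. It was set with earlier results of these data known. Of 32520 zebrafish genes 47 met this rule: 21 cathepsins, 4 LAMPs, 9 genes of the membrane sector V0 and 13 of the catalytic sector V1. Of 24209 platyfish genes 41 did, with 15, 4, 9 and 13 in the same families.

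Heart ventricles of adult wild-type zebrafish (Danio rerio) and platyfish (Xiphophorus maculatus) were profiled by RNA sequencing in 4 groups of 3 libraries, uninjured and cryoinjured in each species. Cryoinjury kills part of the ventricular wall by freezing, and the injured hearts were taken on day 7; the uninjured fish had undergone no procedure, so the controls carry no sham surgery. Each library is a pool of 8 ventricles of mixed cell types, freed of atrium and bulbus arteriosus. Unless libraries are left out, n = 3 pools per group holds for every value below. Pools average over fish, so the p-values measure the spread between pools and not between animals, and in such bulk tissue a change in the number of cells of a type cannot be told apart from a change in RNA per cell.

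Lysosomes are acidic organelles in which proteins, lipids and whole organelles delivered by endocytosis, phagocytosis and autophagy are degraded. The V-ATPase acidifies them: V1, on the cytosolic side, splits ATP and turns a rotor that drives protons through the membrane sector V0. Cathepsins are the proteases that work at this acid pH, most of them cysteine proteases, with cathepsin D an aspartic and cathepsin A a serine enzyme, and LAMP1 and LAMP2 are the heavily glycosylated proteins that line the membrane. Phagocytes are rich in cathepsins, and heart muscle depends on lysosomes for autophagy; loss of LAMP2 in humans causes a cardiomyopathy.

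The zebrafish libraries held 20735097 to 27994535 counts and the platyfish libraries 19073562 to 31148127. Lysosome genes made up 0.0970% to 0.149% of a zebrafish library and 0.284% to 0.413% of a platyfish one. Mitochondrial genes made up 28.9% to 37.3% of a zebrafish library and 17.7% to 21.6% of a platyfish one. The species were also counted on different gene sets, so the lysosome shares do not compare levels between them. Zebrafish cryoinjured replicates 2 and 3 stood apart, with 16530 and 15976 genes detected against 18102 to 18819 in the other zebrafish libraries. Log2 fold changes that move by over 1.5 times without both are also given that way, except for genes given only in a range. A fit without both keeps replicate 1 as its only cryoinjured pool, so its adjusted p-values hold no spread between cryoinjured pools. The cardiomyocyte markers, of whose 10 symbols 9 were matched in zebrafish, summed to 48869 to 66657 CPM (counts scaled to the library total) in the zebrafish libraries, and the 6 of them with a symbol in the platyfish table to 37068 to 43234 CPM; the defining muscle genes of the labelled tissue were thus present. Genes with too few counts were left untested by a filter on low counts: 33 of the 47 zebrafish and 34 of the 41 platyfish lysosome genes were tested. Of the untested ones, 8 in zebrafish and 2 in platyfish had 0 counts in all 6 libraries of their species, which allows up to 3 counts in a library (0.107 to 0.145 CPM in zebrafish, 0.0963 to 0.157 CPM in platyfish; counting error only). The highest count of any untested one was 8 in zebrafish and 12 in platyfish. Counts below describe the tested genes only, since a gene can pass the filter through the group in which it is high.

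In the zebrafish ventricle 7 days after cryoinjury 1 lysosome gene passed the test, and it rose: ctsz, which encodes cathepsin Z. At a Benjamini-Hochberg adjusted p under 0.05 in edgeR's quasi-likelihood test over all genes, 1 of the 33 tested lysosome genes was higher and 0 were lower, against 0.98% of all 13470 genes tested (0.676% higher and 0.304% lower). At an unadjusted p under 0.05, 8 were higher and 0 lower, where all tested genes gave 8.31% and 7.15%. In 12 of the 33 the cryoinjured pools all lay above the uninjured pools, and in 0 they all lay below, against 10.8% and 10.9% of all tested genes. The 13 tested cathepsins held 9 of these 12 and 6 of the 8, and their median log2 fold change was 0.37, with 11 positive and 2 negative. The median over all tested genes was -0.018, and 48.4% of them were positive. The plot of fold changes shows every tested gene with its standard error.

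**Figure D1:**
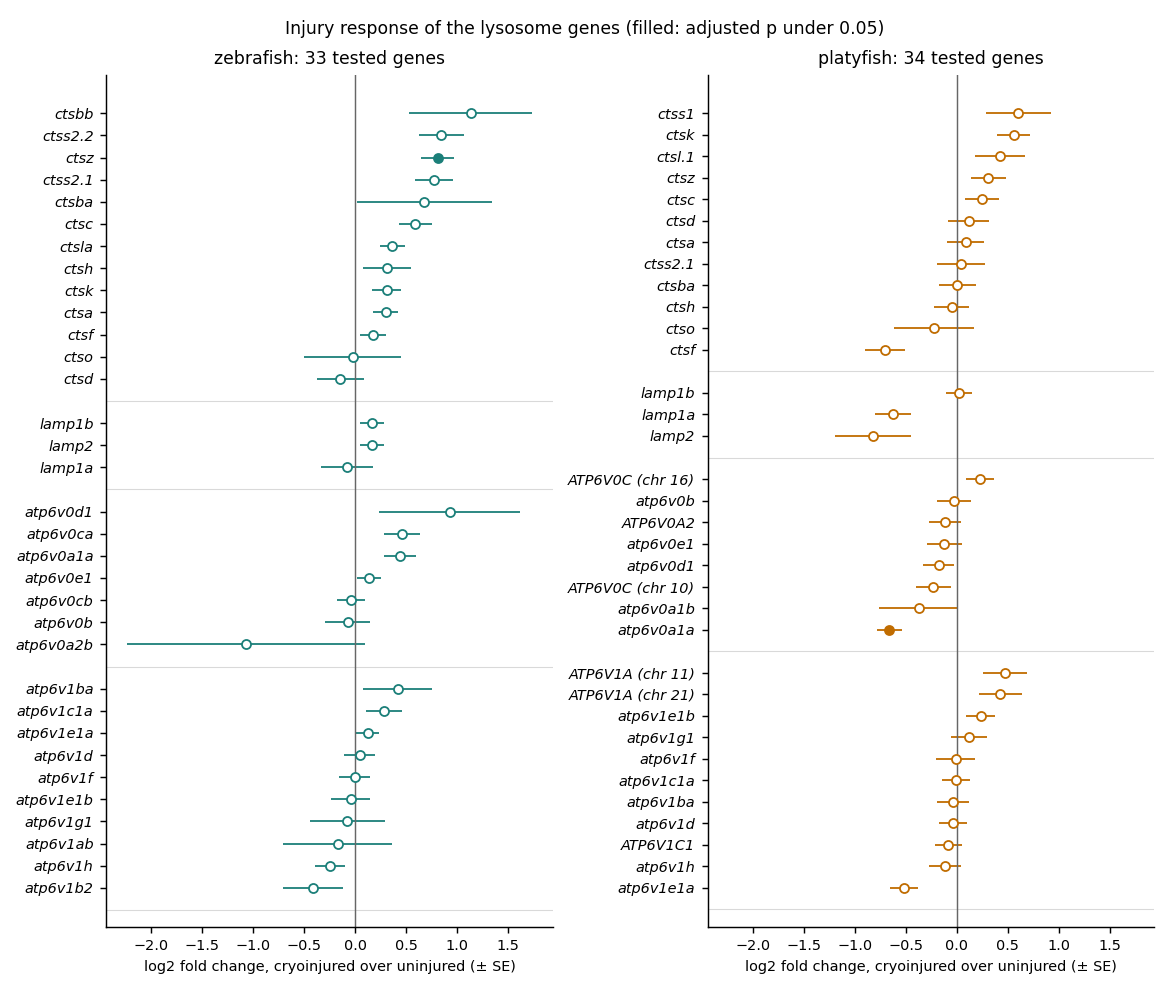
Log2 fold change of each tested lysosome gene, cryoinjured over uninjured, in zebrafish (left, 33 genes) and platyfish (right, 34 genes). Points are edgeR estimates and bars 1 standard error, in blocks of cathepsins, LAMPs, V0 and V1 from the top; filled points passed adjusted p 0.05, which are ctsz in zebrafish and atp6v0a1a in platyfish.

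Cathepsin Z is a lysosomal carboxypeptidase that is abundant in phagocytes of mammals. Zebrafish ctsz (ENSDARG00000043081, chromosome 6) had 281, 285 and 279 normalised counts in uninjured replicates 1, 2 and 3, and 438, 564 and 477 in cryoinjured replicates 1, 2 and 3; values of other genes are given in the same order. The uninjured pools were nearly alike, and every cryoinjured pool lay above them. The mean rose 1.75-fold, from 281 ± 3.21 to 493 ± 64.8 (SD), a log2 fold change of 0.81 with an SE of 0.16 and an adjusted p of 0.0481; such values are abbreviated to log2 change for the other genes. The value lay close to the threshold. With the replicate number as a block, which the labels list as a batch, it did not pass (adjusted p 0.0570), and 0 zebrafish lysosome genes were called. The unblocked call was kept without cryoinjured replicate 1 (adjusted p 0.0370) and lost on leaving out uninjured replicate 1, 2 or 3 (0.180, 0.0964 and 0.154) or cryoinjured replicate 2 or 3 (0.183 and 0.128). Without both cryoinjured replicates 2 and 3 the log2 fold change was 0.62 and the adjusted p 0.593.

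Cathepsin S trims the invariant chain of MHC class II in antigen-presenting cells of mammals, and zebrafish have copies of its gene, of which 2, ctss2.1 and ctss2.2, were tested. RefSeq (assembly GRCz12tu) places ctsk, ctss2.1 and ctss2.2 next to each other on chromosome 16, between lingo4b and onecutl. Zebrafish ctss2.1 had 315, 388 and 293 normalised counts uninjured and 463, 664 and 578 cryoinjured (log2 change 0.78 ± 0.18 SE, adjusted p 0.0806). Its neighbour ctss2.2, named here after its values were seen, had 731, 931 and 566 and 979, 1367 and 1659.8 (log2 change 0.85 ± 0.22 SE, adjusted p 0.114). For both copies the groups did not overlap, and neither passed the threshold. Leaving out cryoinjured replicate 1 brought both past it, at adjusted p 0.0439 and 0.0450; leaving out any 1 other library gave 0.0847 to 0.279 for ctss2.1 and 0.0804 to 0.319 for ctss2.2. Without both cryoinjured replicates 2 and 3 the log2 fold changes were 0.46 and 0.38 (adjusted p 0.750 and 0.802). Reads shared between such copies can be assigned to either or dropped, so the split between them is uncertain.

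Cathepsin K, the collagen-degrading protease of mammalian osteoclasts, lies beside them. Zebrafish ctsk had 1755, 1912 and 1443 normalised counts uninjured and 1931, 2333 and 2071 cryoinjured (log2 change 0.31 ± 0.14 SE, adjusted p 0.329). Its groups did not overlap, by a narrow margin between uninjured replicate 2 and cryoinjured replicate 1, and without cryoinjured replicates 2 and 3 the log2 fold change was 0.17. Cathepsin C, a dipeptidyl peptidase that activates granule proteases of mammalian leukocytes, gave a wider step. Zebrafish ctsc had 1211, 1322 and 904 normalised counts uninjured and 1604, 1622 and 1954 cryoinjured (log2 change 0.59 ± 0.16 SE, adjusted p 0.118). All cryoinjured pools were above all uninjured pools. In the authors' deposited table, ctsc, ctss2.1, ctss2.2 and ctsz had adjusted p-values of 0.0370, 0.0147, 0.0113 and 0.00393, where 2.81% of the 11503 genes given an adjusted p were higher and 1.77% lower at 0.05.

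None of the broad endopeptidases passed. Cathepsin L gave the highest counts of the family in zebrafish, where ctsla had 2889, 3289 and 3679.5 normalised counts uninjured and 4055, 4136 and 4509.6 cryoinjured (log2 change 0.37 ± 0.12 SE, adjusted p 0.205), with no overlap. Cathepsin B, an endopeptidase that also removes dipeptides, was the most variable of the well-counted genes: ctsba had 2430.0, 875 and 1514 and 853, 4001 and 2866 (log2 change 0.68 ± 0.67 SE, adjusted p 0.69). Cryoinjured replicate 1 was the lowest of all 6 pools and replicate 2 the highest, so the direction of ctsba rested on replicates 2 and 3, and without both it was -0.93 on the log2 scale. Its copy ctsbb had the largest positive log2 fold change of the zebrafish cathepsins at few counts, 14.8, 17.6 and 6.08 normalised counts uninjured and 21.3, 41.6 and 21.9 cryoinjured (log2 change 1.13 ± 0.61 SE, adjusted p 0.409). The groups did not overlap, its 95% interval ran from -0.21 to 2.48, and without cryoinjured replicates 2 and 3 the log2 fold change was 0.71. Cathepsin D, the aspartic protease, went the other way in sign, with 233, 211 and 293 and 177, 204 and 287 (log2 change -0.15 ± 0.23 SE, adjusted p 0.805) and overlapping groups; its sign turned to 0.024 when counts were scaled to library size only, and without cryoinjured replicates 2 and 3 it was -0.49. The other 4 tested cathepsins (ctsa, ctsf, ctsh and ctso) ranged in log2 fold change from -0.023 for ctso to 0.31 for ctsh, and none passed.

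**Figure D2:**
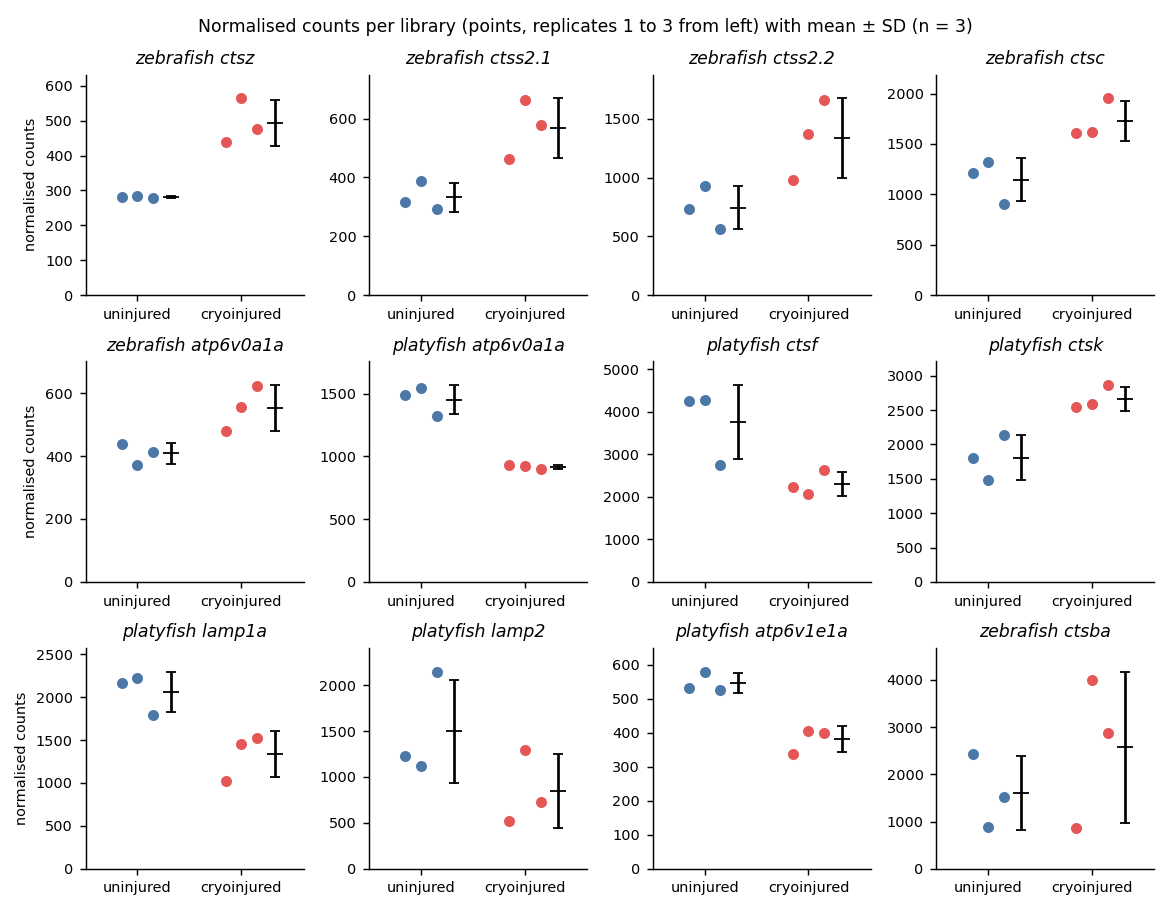
Normalised counts (y axis, from 0) of 12 gene and species pairs in the uninjured (blue) and cryoinjured (red) pools, replicates 1 to 3 from left to right, with the mean ± SD (n = 3). The tightest groups are the uninjured pools of zebrafish ctsz and the cryoinjured pools of platyfish atp6v0a1a. Zebrafish ctsba spreads from 853 to 4001 within the cryoinjured group.

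No LAMP gene passed in zebrafish. The most abundantly counted LAMP gene was lamp2, with 2920.1, 2529 and 3091 normalised counts uninjured and 3083, 3257 and 3234 cryoinjured (log2 change 0.16 ± 0.12 SE, adjusted p 0.55), and 1 uninjured pool lay inside the cryoinjured range; without cryoinjured replicates 2 and 3 the log2 fold change was 0.10. For lamp1b the values were 1152, 1066 and 1087 and 1211, 1173 and 1326 (log2 change 0.17 ± 0.12 SE, adjusted p 0.545), without overlap. Its copy lamp1a had 311, 255 and 437 and 367, 219 and 360.2 (log2 change -0.084 ± 0.26 SE, adjusted p 0.907), with overlap, and its sign turned to 0.11 with scaling to library size only and to 0.12 without cryoinjured replicates 2 and 3. The 95% intervals of lamp2 and lamp1b reached from -0.10 to 0.43 and from -0.10 to 0.43, which leaves out a 2-fold change.

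Neither sector of the proton pump had a called gene in zebrafish. The 7 tested V0 genes had a median log2 fold change of 0.14 and the 10 tested V1 genes of -0.024. The V1 median turned to 0.15 with scaling to library size only and ranged from -0.092 to 0.079 with each library left out. Subunit a spans the membrane and carries the proton half-channels, and its isoform gene atp6v0a1a had 438, 373 and 413 normalised counts uninjured and 479, 556 and 624 cryoinjured (log2 change 0.44 ± 0.16 SE, adjusted p 0.225). The cryoinjured pools lay above the uninjured ones without overlap, and without cryoinjured replicates 2 and 3 the log2 fold change was 0.22. The proteolipid of the c ring gave the most counts of V0 through atp6v0ca, 1652, 2171 and 1827 and 2048, 2511 and 3223 (log2 change 0.46 ± 0.18 SE, adjusted p 0.251), and cryoinjured replicate 1 fell inside the uninjured range; without the other 2 cryoinjured pools the log2 fold change was 0.11. At the low end, atp6v0a2b had the largest absolute change of the sector, 19.5, 11 and 33.4 normalised counts against 28.4, 1.02 and 0 (log2 change -1.07 ± 1.17 SE, adjusted p 0.71). Its lower mean came from the low values of cryoinjured replicates 2 and 3, and without both the log2 fold change was 0.40. The remaining tested V0 genes ranged on the log2 scale from -0.071 for atp6v0b to 0.93 for atp6v0d1, which had 7 to 23 counts per library. Within this range atp6v0cb, the other c-ring gene, had -0.042, with overlapping groups.

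In V1, subunit E forms the peripheral stalks, and atp6v1e1a gave the most counts of that sector, 1165, 1139 and 1166 normalised counts uninjured and 1209.7, 1333 and 1235 cryoinjured (log2 change 0.12 ± 0.12 SE, adjusted p 0.658). The groups did not overlap, at a fold of 1.09, and without cryoinjured replicates 2 and 3 the log2 fold change was 0.050. Subunit B helps to form the ATP-splitting head, and atp6v1ba had 123, 85.8 and 143 and 150.1, 93.4 and 228 (log2 change 0.42 ± 0.34 SE, adjusted p 0.602), with overlap. The other 8 tested V1 genes ranged from -0.41 for atp6v1b2 to 0.28 for atp6v1c1a on the log2 scale.

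In the platyfish ventricle 1 lysosome gene passed the test, and it fell. It was atp6v0a1a, which shares its symbol with the zebrafish isoform gene of the membrane-spanning subunit a. Of the 34 tested genes 0 were higher and 1 lower in edgeR's test at adjusted p under 0.05, against 3.92% of all 15226 genes tested (2.7% higher and 1.22% lower). With the replicate block the calls over all platyfish genes went from 597 to 256. At an unadjusted p under 0.05, 1 was higher and 4 lower, where all tested genes gave 13.2% and 10.9%. The groups did not overlap in 3 genes with cryoinjured higher and 4 with cryoinjured lower, against 16.8% and 13.6% of all tested genes. These shares are near or under the background. The medians of log2 fold change were 0.10 over 12 tested cathepsins, -0.63 over 3 LAMPs, -0.15 over 8 V0 genes and -0.012 over 11 V1 genes. Over all tested genes the median was 0.0078, and 50.8% were positive. The V1 median turned to 0.12 with scaling to library size only and ranged from -0.091 to 0.078 with each library left out. The cathepsin median turned to -0.013 without uninjured replicate 1.

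Platyfish atp6v0a1a (ENSXMAG00000009012, chromosome 16) had 1488, 1549 and 1325 normalised counts in uninjured replicates 1, 2 and 3 and 929, 927 and 901 in the cryoinjured ones. The cryoinjured pools were nearly alike and all lay well below the uninjured pools. The mean went from 1454 ± 116 to 919 ± 15.6 (SD), a fold of 0.63 (log2 change -0.66 ± 0.12 SE, adjusted p 0.0277). With the replicate block the adjusted p was 0.0758, and 0 platyfish lysosome genes were called. The unblocked call was kept without uninjured replicate 3 (adjusted p 0.0221). It was lost without uninjured replicate 1 or 2 (0.114 and 0.0876), without cryoinjured replicate 1, 2 or 3 (0.0637, 0.0619 and 0.109), and with counts scaled to library size only (log2 fold change -0.52, adjusted p 0.0926).

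The next V-ATPase gene by p was a stalk subunit of V1. Platyfish atp6v1e1a had 532, 578 and 525 normalised counts uninjured and 338, 405 and 399.8 cryoinjured (log2 change -0.52 ± 0.14 SE, adjusted p 0.069), with every cryoinjured pool below every uninjured one. The most counted V1 gene, atp6v1g1, another stalk subunit, had 3438, 4309 and 4026 and 3377, 4507 and 4876 (log2 change 0.12 ± 0.18 SE, adjusted p 0.724), with overlap. For the c ring, the ATP6V0C gene on chromosome 10 had 5473, 5123 and 6824 normalised counts uninjured and 4339, 5485 and 5021 cryoinjured (log2 change -0.23 ± 0.17 SE, adjusted p 0.435), and its copy on chromosome 16 had a log2 fold change of 0.23. Both copies overlapped between groups, and reads they share make the split uncertain. The catalytic subunit A likewise had a pair of copies, ATP6V1A on chromosomes 21 and 11, with log2 fold changes of 0.43 and 0.47 (adjusted p 0.254 and 0.22). The other 12 tested V-ATPase genes of platyfish ranged on the log2 scale from -0.37 for atp6v0a1b to 0.23 for atp6v1e1b.

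No LAMP gene passed in platyfish either. For lamp1a the pools had 2168, 2224 and 1797 normalised counts uninjured and 1029, 1451 and 1529 cryoinjured (log2 change -0.63 ± 0.18 SE, adjusted p 0.084), with no overlap. The copy lamp1b had 3271, 3053 and 3035 and 3203, 3014 and 3269 (log2 change 0.019 ± 0.13 SE, adjusted p 0.946), with overlap and a 95% interval from -0.27 to 0.31. For lamp2, which takes part in the fusion of autophagosomes with lysosomes, they were 1232, 1121 and 2144 and 523, 1293 and 729 (log2 change -0.82 ± 0.37 SE, adjusted p 0.229). Its spread was wide in both groups, cryoinjured replicate 2 lay above uninjured replicates 1 and 2, and the interval ran from -1.69 to 0.05.

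Among the platyfish cathepsins, ctsk and ctsf had log2 fold changes of opposite sign, and neither passed the threshold. Platyfish ctsk had 1803, 1485 and 2141 normalised counts uninjured and 2539.6, 2594 and 2865 cryoinjured (log2 change 0.56 ± 0.16 SE, adjusted p 0.086), all cryoinjured pools above all uninjured ones. Cathepsin F, a cysteine protease, had 4244, 4273 and 2744 and 2219, 2068 and 2626 (log2 change -0.70 ± 0.20 SE, adjusted p 0.0811), all cryoinjured pools below, with uninjured replicate 3 just above cryoinjured replicate 3. Without uninjured replicate 3 both passed, at adjusted p 0.0416 for ctsk and 0.0218 for ctsf. In the authors' deposited table, of the platyfish lysosome genes 5 were past 0.05: ctsk higher, and ctsf, lamp1a, atp6v0a1a and atp6v1e1a lower, with adjusted p-values of 0.0362, 0.0124, 0.0205, 0.000243 and 0.0286. Of the 15922 genes given an adjusted p there, 5.5% were higher and 4.64% lower.

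The most counted platyfish lysosome gene, ctsba, had nearly the same mean in both groups: 19556, 16365 and 20644 normalised counts uninjured and 15917, 21889 and 18969 cryoinjured (log2 change 0.0054 ± 0.18 SE, adjusted p 0.99). Its 95% interval ran from -0.41 to 0.42, which leaves out a 2-fold change in either direction. The ctss2.1 values were 6457, 8082 and 11218 and 7156, 10612 and 8719 (log2 change 0.041 ± 0.23 SE, adjusted p 0.938). The zebrafish gene of the same name had its groups apart, whereas here they overlapped across most of their range. Platyfish ctss1, named here after its values were seen, had 49.4, 81.8 and 122 normalised counts uninjured and 110, 144 and 127 cryoinjured. Its log2 fold change was 0.60 ± 0.32 SE (adjusted p 0.283), with overlap. The ctsd values were 7722, 9821 and 12782 and 10751, 11288 and 10798 (log2 change 0.11 ± 0.20 SE, adjusted p 0.759), with the uninjured pools spread on both sides of the cryoinjured ones.

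For ctsz, ctsc and ctsl.1 the platyfish groups overlapped. Platyfish ctsz on chromosome 20 (ENSXMAG00000003406) had 1623, 1696 and 2373 normalised counts uninjured and 2173, 2464 and 2413 cryoinjured (log2 change 0.31 ± 0.17 SE, adjusted p 0.305), and uninjured replicate 3 lay among the cryoinjured pools; the other gene of that symbol, on chromosome 23, had 0 counts in all 6 libraries. For ctsc the values were 3280.1, 3579.9 and 4251 and 3862, 4979.6 and 4336 (log2 change 0.25 ± 0.16 SE, adjusted p 0.388). The low-count ctsl.1 had 70.9, 68.5 and 105 and 111, 117 and 98.1 (log2 change 0.42 ± 0.24 SE, adjusted p 0.323). In all 3, the uninjured pool with the highest value was replicate 3, the shallowest library, and it lay inside the cryoinjured range. The remaining tested platyfish cathepsins (ctsa, ctsh and ctso) ranged in log2 fold change from -0.23 for ctso to 0.086 for ctsa, and none passed.

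Whether the injury response differed between the species was tested directly, as the zebrafish log2 fold change minus the platyfish one in a joint fit of all 12 libraries. Genes were matched by identical symbols that occur once in each table, which does not establish that they are orthologues; 33 of the lysosome symbols matched and 24 were tested. Of these, 1 passed at adjusted p under 0.05 in edgeR's test, atp6v0a1a, with the more positive response in zebrafish, against 2.49% of the 8098 genes tested (1.14% more positive in zebrafish and 1.36% in platyfish). At an unadjusted p under 0.05 there were 6, all more positive in zebrafish, against 19.5% (9.04% and 10.4%). The difference was positive for 18 and negative for 6, with a median of 0.28, where all tested genes had a median of -0.052 and 46.1% were positive.

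For atp6v0a1a the difference was 1.099 ± 0.19 SE on the log2 scale (95% interval 0.69 to 1.51, adjusted p 0.0155). All 3 cryoinjured pools lay above all 3 uninjured ones in zebrafish, and all 3 lay below in platyfish. With the replicate block within each species it missed the threshold (log2 difference 1.09, adjusted p 0.0521), and 0 lysosome genes and 83 of all genes, in place of 202, were called. Without the block the difference passed on leaving out any 1 of the 12 libraries, with adjusted p from 0.00823 to 0.0457. Without both zebrafish cryoinjured replicates 2 and 3 it was 0.88 with an adjusted p of 0.0992.

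The other 23 differences did not pass. The differences were 0.88 ± 0.25 SE for ctsf (95% interval 0.35 to 1.41, adjusted p 0.0775) and 0.64 ± 0.17 for atp6v1e1a (0.26 to 1.02, adjusted p 0.0709). For ctss2.1 it was 0.73 ± 0.31 (adjusted p 0.216), for lamp2 0.99 ± 0.41 (0.213) and for atp6v0d1 1.099 ± 0.42 (0.176). The last rests on 7 to 23 zebrafish counts per library. Cathepsin K, positive in both species, differed by -0.25 with a 95% interval of -0.74 to 0.24. For ctsz, whose symbol occurs more than once in platyfish, summing the copies gave a difference of 0.52 ± 0.23 SE (adjusted p 0.235), so that the rise in zebrafish was not shown to differ from the platyfish value.

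**Figure D3:**
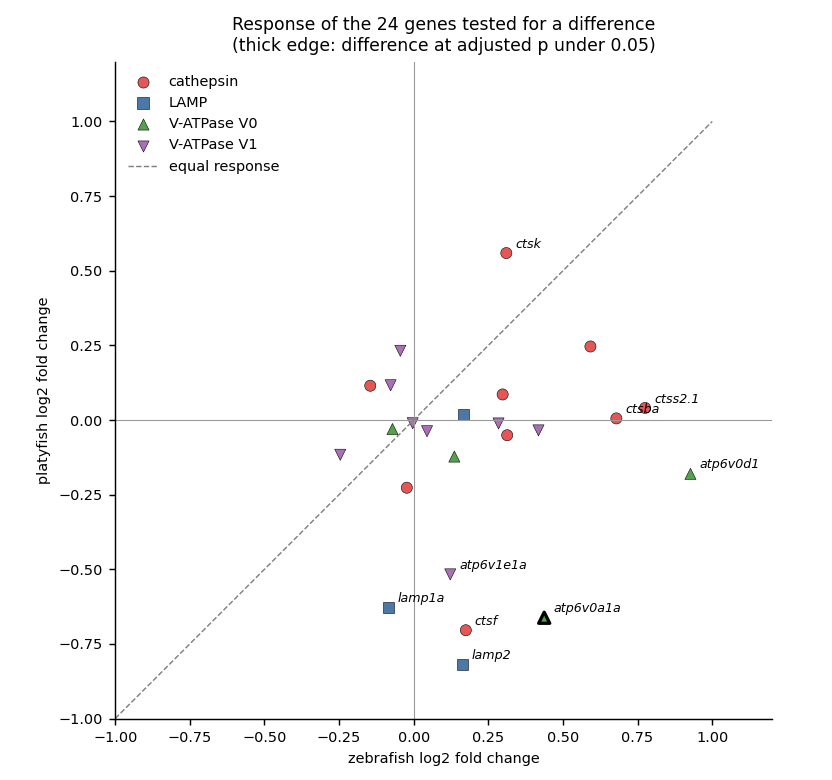
Log2 fold change (cryoinjured over uninjured) in zebrafish (x axis) against platyfish (y axis) for the 24 lysosome genes tested for a difference, with the line of equal response dashed. Of these, 18 lie below the line, and atp6v0a1a (thick edge) is the 1 gene whose difference passed adjusted p 0.05.

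The summed level of each family was described in every library, without a test, on the scale of the main fits. The zebrafish cathepsins summed to 12801, 12446 and 11580.5 normalised counts in the uninjured pools and to 13491, 18647 and 18228 in the cryoinjured ones. The groups did not overlap, and cryoinjured replicate 1 lay close to the uninjured pools. Part of its distance from cryoinjured replicates 2 and 3 came from the 1 gene ctsba, with 853 normalised counts against 4001 and 2866. The sums of V0 (4844 to 4984 uninjured, 5242 to 6498 cryoinjured) and of the LAMPs (3850.1 to 4615 and 4649 to 4920.2) did not overlap either, the latter narrowly, while those of V1 did (3805 to 4004 and 3761 to 4216). In platyfish the LAMP sums did not overlap and were lower in the cryoinjured pools, at 6399 to 6976 uninjured and 4757 to 5758 cryoinjured. The other platyfish families overlapped: cathepsins with 49058 to 62228 and 48950.5 to 61622, V0 with 13274 to 15592 and 11627 to 13673, and V1 with 14674 to 16574 and 13949.6 to 18230.1. Scaling to the library total (CPM) moved the median log2 fold change of all zebrafish genes up by 0.18 relative to the main scaling, and of all platyfish genes by 0.13. On that scale the zebrafish V1 sums did not overlap (150 to 154 CPM uninjured and 161 to 186 cryoinjured) and the platyfish LAMP sums did (245 ± 38.1 and 213 ± 21.5 CPM, SD), while the other families stood as above.

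**Figure D4:**
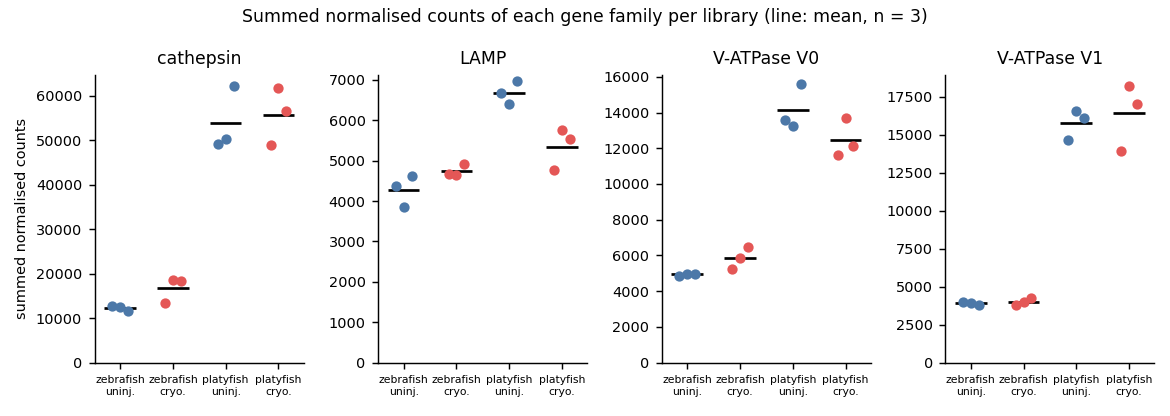
Summed normalised counts (y axis, from 0) of all cathepsin, LAMP, V0 and V1 genes in each library; blue points are uninjured and red points cryoinjured pools, and lines are means (n = 3). Each species was scaled on its own. On this scale the groups do not overlap for zebrafish cathepsins, LAMPs and V0, with cryoinjured higher, and for platyfish LAMPs, with cryoinjured lower; with CPM zebrafish V1 also separates and platyfish LAMPs overlap.

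Some macrophage markers were higher in the same zebrafish pools as ctsz, and most did not pass. Of 25 zebrafish genes on the macrophage list 18 were tested and 14 had a positive log2 fold change. In edgeR's test 4 rose and 0 fell at adjusted p under 0.05, against 0.676% and 0.304% of all genes tested. At an unadjusted p under 0.05, 9 were higher and 0 lower, against 8.31% and 7.15%. The 4 were the scavenger receptor marco (log2 fold change 1.70), mannose receptor mrc1b (1.11), invariant chain cd74a (0.83) and apolipoprotein apoeb (4.67). In that order their edgeR adjusted p-values were 0.00197, 0.0318, 0.0399 and 0.0448. Without cryoinjured replicates 2 and 3 the log2 fold changes of these genes were 1.91, 0.73, 0.56 and 2.90. The summed level of the list went from 872 to 1332 CPM in the uninjured pools to 1930 to 2511 CPM in the cryoinjured ones, and no symbol of the list that the table holds was at 0. The 9 symbols also matched in platyfish gave 65.1 to 79.1 CPM uninjured and 143 to 239 CPM cryoinjured. Most of the sum thus came from the other symbols. The receptor csf1ra, a defining macrophage gene named here after its values were seen, had a log2 fold change of -0.0047 (adjusted p 0.996). Without cryoinjured replicates 2 and 3 the csf1ra value was 0.57. Pan-leukocyte markers summed to 69.9 to 135 CPM uninjured and 165 to 189 cryoinjured, with 0 of 8 called and 5 higher at an unadjusted p under 0.05. Neutrophil markers summed to 13.8 to 39.9 and 42.3 to 63.2 CPM, with 0 of 8 called and 2 higher at that p. All these marker sums are in CPM, a scale that moved the median log2 fold change of all zebrafish genes up by 0.18. A small gap between groups in CPM need not hold on the main scale. Of the cardiomyocyte markers 3 of 10 fell (cmlc1 at -0.52, actc1a at -0.86 and myl7 at -0.40 on the log2 scale). With the replicate block 1 of them, actc1a, passed in edgeR's test (adjusted p 0.0304, and 0.0755 for cmlc1 and 0.0656 for myl7). Without cryoinjured replicates 2 and 3 the log2 fold changes of cmlc1, actc1a and myl7 were -0.47, -0.70 and -0.44. The part of these cell types in the cathepsin values was not tested.

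In platyfish 0 of the 10 tested macrophage genes were called, where all tested genes gave 2.7% higher and 1.22% lower. At an unadjusted p under 0.05, 2 were higher and 1 lower, where all tested genes gave 13.2% and 10.9%. The list summed to 460 to 801 CPM uninjured and 588 to 778 CPM cryoinjured. These are counts over other genes than in zebrafish: of the 21 symbols on the list 18 were matched in zebrafish and 9 in platyfish, cd74a and cd74b not among the latter. Over the 9 symbols matched in both, the zebrafish pools summed to 65.1 to 79.1 CPM uninjured and 143 to 239 CPM cryoinjured. Pan-leukocyte markers summed to 245 to 434 and 428 to 534 CPM, with 0 of 6 called and 3 higher at that p, and neutrophil markers to 60.6 to 162 and 121 to 160.2 CPM, with 0 of 5 called and 1 higher. No cardiomyocyte marker of 6 tested was called there, and 0 had an unadjusted p under 0.05. Osteoclast markers, the cells best known for cathepsin K in mammals, had 0 called in either species, of 1 tested in zebrafish and 2 in platyfish, and 0 at an unadjusted p under 0.05; calcr and ocstamp were at 0 in zebrafish. Of the fibroblast markers 2 of 7 tested rose in zebrafish (postnb and col1a2, by 4.62 and 1.34 on the log2 scale). In platyfish 3 of 6 rose (lum, col1a2 and col1a1a, by 5.14, 3.84 and 3.74). Of all tested genes 0.676% were called higher in zebrafish and 2.7% in platyfish. The log2 fold change was positive for 7 fibroblast markers in zebrafish and 5 in platyfish. At an unadjusted p under 0.05, 5 were higher in zebrafish and 4 in platyfish, and 0 were lower in either. With the replicate block lum did not pass in platyfish (adjusted p 0.107) and did in zebrafish (0.0458), and dcn passed in platyfish (0.0473). Of endothelial and liver markers 1 of 6 and 1 of 1 tested rose in zebrafish, plvapa by 3.22 and the transferrin gene tfa by 3.54 on the log2 scale. In platyfish 0 of 6 and 0 of 1 were called. Only tfa, of 6 liver genes in zebrafish, had enough counts to be tested. At an unadjusted p under 0.05, 4 endothelial genes were higher and 0 lower in zebrafish, and 0 were higher and 1 lower in platyfish. The genes plvapa in zebrafish and lum in both species passed the filter on low counts only through the cryoinjured pools, so their calls come from genes that had to be higher there. Exocrine pancreas markers had 0 called, of 1 tested in zebrafish and 4 in platyfish. They summed to 1.61 to 1.83 CPM uninjured and 1.06 to 2.73 CPM cryoinjured in zebrafish, and to 4.67 to 187 and 3.28 to 8.12 CPM in platyfish. The 187 CPM came from platyfish uninjured replicate 2, where a CPA1 gene had 5432 counts, against 50 to 97 in the other platyfish libraries; atp6v0a1a without that library is given above.

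The rest of the lysosome gave few calls. At adjusted p under 0.05 in edgeR's test, all tested genes gave 0.98% in zebrafish and 3.92% in platyfish. Of the other soluble hydrolases and their activators, 0 of 50 tested zebrafish genes passed, with 36 positive (48.4% of all tested genes were); in platyfish 0 of 46 were higher and 1 lower, with 14 positive (50.8% of all). The 1 was dpp7, a lysosomal dipeptidyl peptidase, which fell from 798 ± 80.6 to 487 ± 68.2 normalised counts (log2 change -0.71 ± 0.15 SE, adjusted p 0.0400, and 0.0669 with the replicate block). At an unadjusted p under 0.05, 10 hydrolases were higher and 0 lower in zebrafish, and 2 were higher and 8 lower in platyfish, where all tested genes gave 8.31% and 7.15% in zebrafish and 13.2% and 10.9% in platyfish. Of membrane and sorting proteins 0 of 33 passed in zebrafish and 0 of 37 in platyfish, with 6 higher and 1 lower, and 1 higher and 3 lower, at that unadjusted p. Of V-ATPase accessory proteins 0 of 13 passed in each species, with 2 higher in zebrafish and 1 higher and 1 lower in platyfish at that p. Cystatins, the inhibitors of cysteine cathepsins, gave 0 of 5 in zebrafish, 0 at the unadjusted p too, and none was tested in platyfish.

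The transcription factors of the TFEB and MITF family switch lysosomal genes on in mammals and are held in the cytosol by mTORC1. Of this list 0 of 15 passed in zebrafish, against 0.98% of all tested genes, which was 3.92% in platyfish. At an unadjusted p under 0.05, 1 was higher and 1 lower in zebrafish, where all tested genes gave 8.31% and 7.15%. At that p 1 was higher and 5 were lower in platyfish, where all tested genes gave 13.2% and 10.9%. In platyfish 1 of 16 passed: mitfa, best known in zebrafish for pigment cells, rose from 2.77 ± 0.26 to 19.4 ± 3.31 normalised counts (log2 change 2.75 ± 0.50 SE, adjusted p 0.0260, and 0.0691 with the replicate block). It had 2 to 3 counts in the uninjured pools and passed the filter on low counts only through the cryoinjured ones, so it had to be higher there. The factor tfeb itself had log2 fold changes of 0.34 in zebrafish (adjusted p 0.278) and -0.060 in platyfish (0.804), and is named here after its values were seen. Without zebrafish cryoinjured replicates 2 and 3 the zebrafish tfeb value was 0.19.

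A V-ATPase is assembled from all of these subunits, and in zebrafish the counts were uneven across them. Summed over gene copies, the catalytic subunit A had 20 to 48 counts in the 6 zebrafish libraries, all from atp6v1ab, since atp6v1aa had 0 in each. Subunit d of V0, which joins the rotor to the c ring, had 7 to 23. Every other subunit had at least 167 counts in each zebrafish library and up to 3780. In platyfish the same subunits had 1004 to 2080 counts for A and 1974 to 2416 for d, and no subunit had fewer than 630. The counts are not divided by transcript length, so levels of different genes cannot be ranked from them, and the 2 species were counted on different gene sets. The fold changes of zebrafish atp6v1ab and atp6v0d1 rest on these low counts, with standard errors of 0.54 and 0.69.

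**Figure D5:**
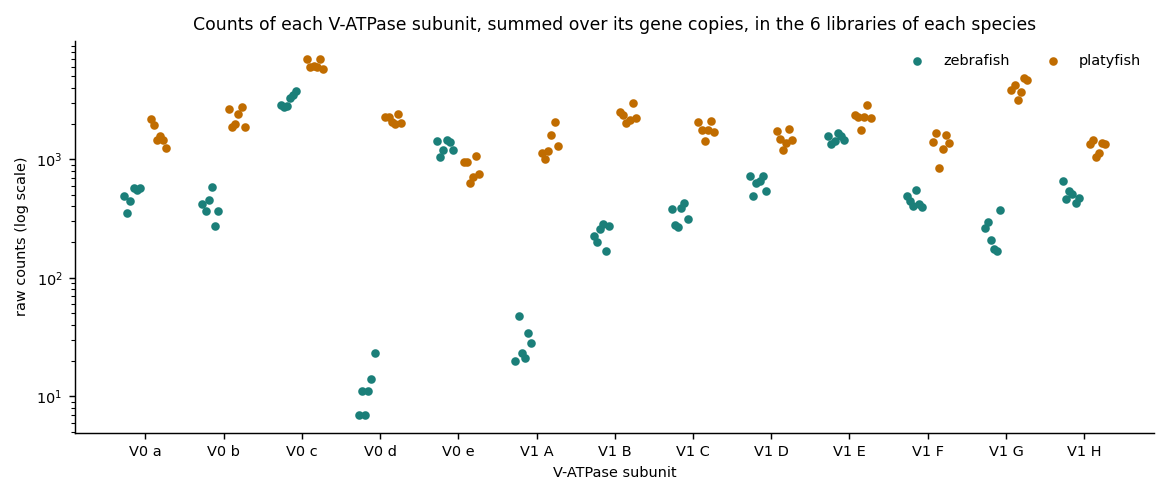
Raw counts (log scale) of each V-ATPase subunit, summed over its gene copies, in the 6 zebrafish (teal) and 6 platyfish (orange) libraries; within a cluster the uninjured replicates 1 to 3 come first, then the cryoinjured ones. Zebrafish V0 d (7 to 23) and V1 A (20 to 48) lie below the other zebrafish subunits, while the platyfish subunits lie between 630 and 7066.

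The symbols without counts also differed between the tables. In zebrafish the 8 genes at 0 in all libraries were cts12, the 4 genes called ctslb, LAMP5, atp6v0a1b and atp6v1aa, and ctsl.1, ctsll, ctss1, atp6v0a2a, atp6v1c1b and atp6v1c2 had between 1 and 8 counts in their highest library. In platyfish ctsz on chromosome 23 and atp6v1c2 were at 0, and cts12, ctsbb, LAMP5, atp6v0a2a and atp6v1b2 had 1 to 12 in theirs. The 4 ctslb genes all lie on chromosome 12 of the zebrafish table, and counts of such copies are uncertain where they share reads. A gene at 0 was not detected at this depth, which does not show that it is silent.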

How the data were processed

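RNA of pooled ventricles was sequenced as stranded poly(A) libraries (TruSeq Stranded mRNA kit), per the labels' protocols. HISAT2 2.2.1, featureCounts 2.0.1, DESeq2 1.38.3, FastQC and the zebrafish build GRCz11 are named per the submitters' processing notes, the build on the platyfish samples too; the build used for platyfish, the annotation releases and the strand setting of the counting are not given in the sources used here. The authors deposited raw counts per gene, which were tested without change. The authors also deposited normalised counts, a signal per gene made with DESeq2 per the file names, which were checked to equal the raw count times 1 constant per library. The authors' deposited log2 fold changes and p-values were read from the same tables, and only the adjusted p-values are quoted. A test statistic in them, the score column per the file headers, was not used. The treatment label of the cryoinjured platyfish names zebrafish; the title and organism were followed.

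The species were fitted separately by edgeR 4.0.16 (R 4.3.3, filterByExpr, TMM, robust glmQLFit, glmQLFTest, Benjamini-Hochberg over all tested genes, threshold 0.05), and the difference between species in a joint fit of 12 libraries with TMM factors within species. Normalised counts in the text are counts scaled to the effective library size. Standard errors (SE) were taken as the size of the log2 fold change over the root of F, and intervals are 95%. The fits were run on simulated data with planted changes larger than those of the called lysosome genes. Recovery of changes of the size seen here was not tested. No library was a copy of another (chi-square per degree of freedom at least 21.2 within groups). Counting errors and floors do not cover losses before counting.

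The members and the gene lists were chosen with earlier results of these data known. Genes given in full are those past the threshold in any fit, the most counted gene and the largest change of each family in each species, and ctsd, ctsba, ctsk, ctsl.1, ctss2.1, ctsc, ctsz, lamp1a, lamp1b, lamp2 and atp6v0d2 where tested. The labels list the replicate number of each library as its batch, and by that label it pairs the libraries of a species; the main fits have no block, and the blocked values stand beside the results whose calls they change. Same-numbered libraries of a species had deviations from their group means that correlated at 0.126, 0.128 and 0.0083 in zebrafish and -0.0863, -0.184 and -0.175 in platyfish. Alternatives were DESeq2 1.42.0, limma voom (limma 3.58.1), other scalings, no filter, an adjusted p under 0.01, the replicate block, summed copies and each library left out; leaving out zebrafish cryoinjured replicates 2 and 3 was added after seeing the data. Figures were drawn with matplotlib 3.10.9.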

Additional observations from a re-analysis of the deposited data

Results flagged for a closer look

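The injury response of atp6v0a1a, an isoform gene of the membrane-spanning subunit of the proton pump, differed between the species by 1.099 on the log2 scale in the joint fit, which is why it is singled out here. All 3 cryoinjured pools were above the uninjured ones in zebrafish and all 3 were below them in platyfish. Only the platyfish response passed the threshold within its species. With the replicate block neither the platyfish response nor the difference passed (adjusted p 0.0758 and 0.0521).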

How the results depend on the processing

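The calls rest on few pools. Among the lysosome genes of zebrafish, 3 were called with scaling to library size only, 4 without the filter on low counts and 4 by DESeq2, against 0 by limma voom, with the replicate block, at adjusted p under 0.01 and without cryoinjured replicates 2 and 3, and 0 to 3 with each library left out. In platyfish they were 5 by DESeq2, 0 with library size only, the block or adjusted p under 0.01, and 0 to 3 with each library left out. For the difference they were 2 with library size only, 3 by DESeq2, 0 with the block, at adjusted p under 0.01 or without those 2 libraries, and 1 to 2 with each library left out. Over all genes, zebrafish calls numbered 132, and 229 with library size only (97.8% higher, against 68.9%), 517 without the filter, 528 by DESeq2, 184 with the block, 27 at adjusted p under 0.01, 11 without the 2 libraries and 29 to 288 with each left out. Platyfish calls numbered 597, and 648 with library size only (84.0% higher, against 68.8%), 1623 by DESeq2, 256 with the block, 36 at adjusted p under 0.01 and 27 to 1008 with each left out. The difference gave 202, and 123 with library size only, 650 by DESeq2, 83 with the block, 14 at adjusted p under 0.01, 21 without the 2 libraries and 66 to 480 with each left out. The causes were not tested. With the replicate number as a block, ctsz had an adjusted p of 0.0570, platyfish atp6v0a1a 0.0758 and its difference 0.0521, and the call of no other cathepsin, LAMP or V-ATPase gene named in the text changed.

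Signs turned in these cases: with library size only, zebrafish ctsd (0.024) and lamp1a (0.11); without the 2 libraries, zebrafish ctsba (-0.93), lamp1a (0.12) and atp6v0a2b (0.40) and the difference of ctsba (-0.93). Platyfish ctsba turned with the size factors of DESeq2 (-0.012), by DESeq2 (-0.015), by voom (-0.00077) and with the block (-0.00043), and lamp1b by DESeq2 (-0.0012). With each library left out, log2 fold changes ranged across 0 for zebrafish lamp1a (-0.25 to 0.15) and for platyfish ctsd (-0.052 to 0.32), ctss2.1 (-0.13 to 0.28), ctsba (-0.11 to 0.12), lamp1b (-0.016 to 0.050) and atp6v1g1 (-0.0032 to 0.26), and the difference of atp6v1g1 ranged from -0.79 to 0.044. Low counts limit the precision for the zebrafish genes with under 50 counts, among them atp6v1ab, atp6v0d1, atp6v0a2b and ctsbb.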

Other observations

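The gene tcirg1b encodes a further isoform of subunit a, the one that acidifies the resorption space of mammalian osteoclasts, but its symbol lies outside the rule used for the V-ATPase; it is named after its values were seen. Zebrafish tcirg1b had 402, 404 and 275 normalised counts in the uninjured pools and 480, 654 and 704 in the cryoinjured ones, without overlap (log2 fold change 0.77 ± 0.20 SE, edgeR adjusted p 0.113). Without cryoinjured replicates 2 and 3 the log2 fold change was 0.40. Platyfish tcirg1b had 1151, 1196 and 1641 uninjured and 1120, 1840 and 1274 cryoinjured (log2 fold change 0.087 ± 0.22 SE, adjusted p 0.838). The zebrafish value has the sign of atp6v0a1a there, and neither passed in that species. The isoform gene atp6v0a2b had the opposite sign in zebrafish at few counts (-1.07, and 0.40 without cryoinjured replicates 2 and 3). Zebrafish tcirg1a, the other gene of that name, did not pass either (edgeR adjusted p 0.796).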
